A study of Rattus norvegicus with 2 samples.

Results

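The hypothalamic genes described here encode the peptides orexin, melanin-concentrating hormone (MCH) and QRFP, together with the receptors for orexin and MCH. They were chosen by name as all non-control spots of the arrays annotated to Hcrt, Hcrtr1, Hcrtr2, Pmch, Mchr1 or Qrfp. All 6 genes were on the arrays, among 26326 genes and other targets. The 6 comprise 3 peptide precursors and 3 receptors and were carried by 24 of the 42877 non-control spots. The samples were whole hypothalamus of Wistar Kyoto (WKY) rats aged 9 weeks. RNA of 5 females formed 1 pool and RNA of 5 males the other, each rat giving 100 ng, and 150 ng of pooled RNA was labelled with Cy3 for 1 single-colour Agilent array per sex. No treatment or genetic change was named for either pool, and the rats had free access to food and water until the day of collection. The series compared the sexes in brain regions of cardiovascular control.

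With 1 array per sex no test is possible and no p-value is given. Differences are female minus male on the log2 scale. The error attached to a difference is the SD over repeated spots of 1 probe or, for a gene on a single spot, the technical SD of repeated probes of like level. That error leaves out labelling, hybridisation, pooling and the rats, so a difference larger than it is a difference between these arrays and not shown to be one between the sexes. The error model of the scanner software gave a wider SD for a difference on 1 spot, 0.20 log2 for Hcrt, Pmch, Hcrtr1 and Mchr1 and 0.21 log2 for Hcrtr2 and Qrfp. The differences of Hcrt, Pmch, Hcrtr2 and Mchr1 are smaller than that, although those of Hcrt and Pmch are means over repeated spots. That of Hcrtr1 is about as large, and that of Qrfp, also on 1 spot, is larger. In pooled tissue RNA, fewer cells of a type and less RNA per cell cannot be told apart.

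Orexin and MCH are made by separate groups of neurons in the lateral hypothalamus that project through much of the brain. Orexin neurons sustain wakefulness and raise feeding, locomotion and sympathetic tone, and their loss underlies narcolepsy with cataplexy. MCH neurons, which fall quiet in waking and fire in sleep, promote feeding and energy storage. QRFP is a peptide of the RFamide family that stimulates feeding and is made by a smaller population of hypothalamic neurons.

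The probes are the units that were measured, so the 2 whose printed letters show which part of the messenger RNA they read are given here, 5′ to 3′, as deposited with the arrays. In the orexin probe the capitals mark the start codon. It therefore reads the junction of the 5′ leader, of which 29 bases are in the probe, with the first codons of the precursor. In the Qrfp probe the capitals mark the codons of the arginine and phenylalanine with which RFamide peptides end.
Hcrt: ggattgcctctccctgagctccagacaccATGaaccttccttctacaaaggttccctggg
Qrfp: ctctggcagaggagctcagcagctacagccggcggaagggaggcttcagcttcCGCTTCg
The Hcrt probe lay on chr10:89700072-89700790 of build rn4, minus strand, so its 60 bases span 719 bases of genome and are split by a gap. The Qrfp probe lay on chr3:10912149-10912208, minus strand, without a gap, and had the highest GC content of the 6, 65.0%. The other probes were also 60 bases long and without gaps. They lay on chr7:24779263-24779322, plus strand, for Pmch, on chr7:119559542-119559601, plus strand, for Mchr1, on chr5:149160752-149160811, minus strand, for Hcrtr1, and on chr8:81068941-81069000, minus strand, for Hcrtr2, whose GC content of 36.7% was the lowest. None of the 6 shared a word of 20 bases with any other probe on the array.

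The level of a spot is log2 of its processed intensity minus log2 of the 75th percentile of the non-control spots of the same array, which was 2943 in the female pool, against 3769 in the male pool. Every spot of the 6 genes was well above background in both pools, and 0 spots were saturated. Hcrt and Pmch were each spotted 10 times across the slide and the other 4 genes once, so the peptides have a measured spot error and the receptors and Qrfp do not. Of the spots of the 6 genes, 1 Pmch spot was marked as an outlier and left out. As a check of the labels, the Y-linked Ube1y1, chosen after its value was seen, had 1 spot, which was not well above background in the female pool but was so in the male pool.

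None of the 6 genes reached a 1.5-fold difference, a size that 494 of the 20655 genes measured in both pools reached (2.39%). A count of 0 among 6 is near that background. A 2-fold difference was reached by 0.508% of genes upward, 0.339% downward and 0.847% in either direction, and by none of the 6. Hcrt, Pmch, Hcrtr2 and Mchr1 were slightly higher in the female pool, Hcrtr1 and Qrfp lower. Qrfp, 1.49-fold lower in the female pool, was the furthest apart, and it lay just inside the threshold of 0.58 log2.

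**Figure D1:**
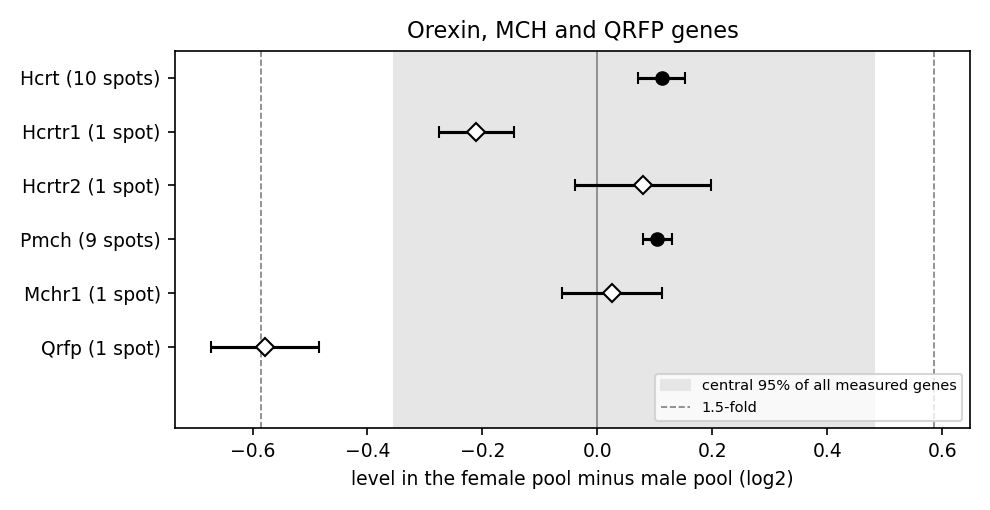
Difference in level between the female and the male pool (log2, horizontal axis) for the 6 genes, with filled circles for repeated probes (bars, SD over spots) and open diamonds for single spots (bars, technical SD). Qrfp at -0.58 is the only gene outside the shaded central 95% of all measured genes, -0.35 to 0.48, and it lies just inside the dashed line of 1.5-fold.

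Hcrt encodes prepro-orexin, from which both orexin peptides are cut. Its processed intensity over 10 spots had a lowest value of 10199, a median of 10715 and a highest of 11151 in the female pool. In the male pool the lowest was 12098, the median 12707 and the highest 13165. The whole female array was dimmer, as its 75th percentile shows, and after scaling the order turned. The level ran over 1.79, 1.86 and 1.92 (lowest, median, highest) in the female pool, against 1.68, 1.75 and 1.80 in the male pool. Of the 10 female spots, 9 lay above the highest male spot, and 8 male spots lay below the lowest female spot, so the groups overlapped only at their edges.

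The difference for Hcrt was 0.11 ± 0.041 log2 (SD, 10 spots), 1.08-fold higher in the female pool. Compared position by position on the slide, the level was higher in the female pool at all 10 positions, with differences from 0.039 to 0.17. This exceeds the scatter between spots. It does not stand out among genes: 41.8% of all measured genes differed by at least as much in either direction. Among 1312 probes with repeated spots, 289 (22.0%) did so. Set against the 1237 genes of like level, within 0.5 log2, whose median difference was -0.034, 13.6% were as far from that median as Hcrt. Part of the slide carried bands of rows with frequent spot defects, and the mean difference was 0.13 over the 3 Hcrt spots inside them, against 0.10 over the 7 outside. With scaling on the spike-in RNAs the Hcrt difference shrank to 0.023, while the median of all genes moved to -0.089.

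Pmch encodes the precursor of MCH, which also yields the neuropeptides NEI and NGE. Over the 9 spots used, its processed intensity had a lowest value of 234767, a median of 254639 and a highest of 262405 in the female pool, against 282717, 304426 and 312288 in the male pool. Its level ran over 6.32, 6.43 and 6.48 in the female pool, against 6.23, 6.34 and 6.37 in the male pool. Of the 9 female spots, 7 lay above the highest male spot.

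The difference for Pmch was 0.10 ± 0.025 log2 (SD, 9 spots), 1.07-fold, and the level was higher in the female pool at all 9 positions. It was 0.092 over the 5 spots inside the defect bands, against 0.12 over the 4 outside. The spots of this gene varied together on both arrays: the SD of the level over positions was 0.054 in the female pool, against 0.048 in the male pool, larger than the SD of the difference. The Pmch value was, however, close to that of other genes of its level. The median difference of the 76 genes within 0.5 log2 of it was 0.088, and 80.3% of them were as far from that median as Pmch. Quantile normalization gave 0.027 for Pmch and 0.12 for Hcrt.

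**Figure D2:**
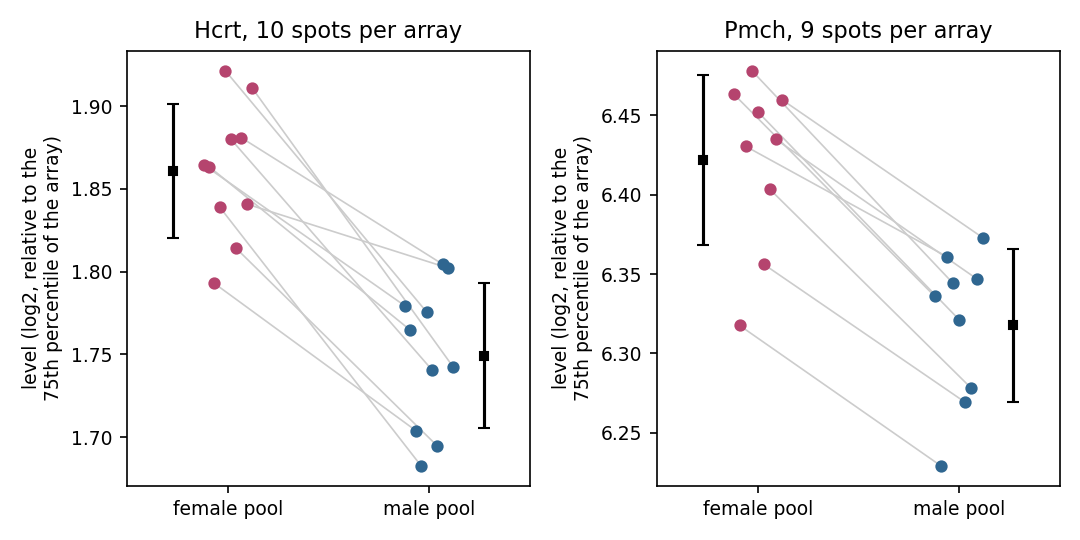
Level of each spot of Hcrt (left) and Pmch (right) in the female and the male pool (vertical axis, log2 relative to the 75th percentile of the array; each axis has its own range and does not start at 0). Lines join spots at the same position on the slide, and squares with bars show the mean and SD over spots; every line is higher at its female end.

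**Figure D3:**
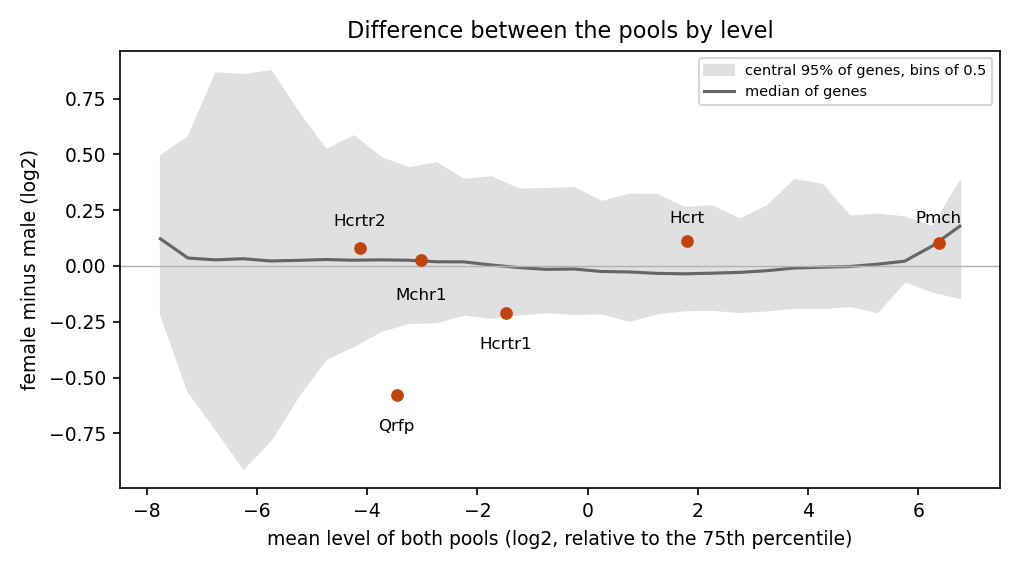
Difference between the pools (vertical axis, log2) against the mean level of both pools (horizontal axis, log2 relative to the 75th percentile) for the 6 genes, over the median (line) and central 95% (shading) of all measured genes in bins of 0.5 log2. Pmch lies near the line, which bends upward at the highest levels, Hcrt lies above it, and Qrfp lies below the shading.

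With scaling by the 75th percentile, the difference of Hcrt minus that of Pmch was 0.0077 ± 0.015 log2 (combined standard error over spots), but the values were further apart under quantile normalization and against genes of like level. Markers of neurons gave smaller values. All 4 that were measured were higher in the female pool (median 0.062 log2). They ranged from 0.00061 for Eno2, a neuronal enolase, to 0.085 for Tubb3, a neuronal tubulin. Eno2, with probes at -0.016 and 0.017, and Syt1, at 0.042, differed by less than their technical SD of 0.054 and 0.061. Spike-in scaling moved the median of all genes to -0.089, a shift larger than the median of the neuron markers. The part of neuron content in the peptide differences was not tested.

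The receptors rest on single spots. Hcrtr1 encodes the orexin receptor that prefers orexin A and is best known from the locus coeruleus. It had a processed intensity of 976 in the female pool, against 1446 in the male pool, and a level of -1.59 in the female pool, against -1.38 in the male pool. The difference of -0.21 ± 0.065 log2 made it 1.16-fold lower in the female pool, and it stayed below 0 in every setting that kept it. Its spot lay in slide row 162, inside a defect band, in which the technical SD at this level was 0.086. The 214 measured spots around it had a median difference of 0.011. Of 2321 genes of like level, 11.5% were at least as far from their median.

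Hcrtr2 encodes the receptor that binds both orexins and carries much of their effect on wakefulness, in part through the histamine neurons of the tuberomammillary nucleus. Its processed intensity was 172 in the female pool, against 209 in the male pool. Its level was -4.10 in the female pool, against -4.17 in the male pool. The difference of 0.079 ± 0.12 log2 was smaller than its technical error, and its sign turned with spike-in scaling (-0.010) and with normexp, a model-based background correction, fitted on all spots (-1.45). Its signal was 5.32 times the local background in the female pool, against 5.61 times in the male pool.

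Mchr1 encodes the receptor of MCH in rodents, which couples to Gi and Gq proteins and sits in the membrane of the primary cilium. Its processed intensity was 366 in the female pool, against 460 in the male pool, and its level -3.01 in the female pool, against -3.03 in the male pool. The difference of 0.025 ± 0.087 log2 was within technical error. Its sign turned with scaling by the array median (-0.013), quantile normalization (-0.025) and spike-in scaling (-0.063), and with normexp on all spots (-0.86). Of all measured genes, 84.8% differed by at least this much.

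The receptor values did not share a direction, and those of Hcrtr2 and Mchr1 were within error. Hcrtr1 and Hcrtr2 were -0.29 ± 0.14 log2 apart in their differences (Hcrtr1 minus Hcrtr2, combined technical SD). Against the peptide each binds, the difference of Hcrtr1 minus that of Hcrt was -0.32 ± 0.067, that of Hcrtr2 minus Hcrt -0.033 ± 0.12, and that of Mchr1 minus Pmch -0.079 ± 0.088. Each of these errors combines the technical SD of the receptor spot with the standard error over the peptide spots. The values for Hcrtr2 and Mchr1 are smaller than their errors. That for Hcrtr1 rests on 1 receptor spot inside a defect band, where the technical SD was 0.086, larger than the 0.065 used in its error.

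Qrfp encodes the precursor of QRFP, also called 26RFa, whose receptor is Qrfpr. It had a processed intensity of 218 in the female pool, against 417 in the male pool. Its level was -3.75 in the female pool, against -3.17 in the male pool. The difference was -0.58 ± 0.094 log2, and 519 of all measured genes (2.51%) differed by at least as much. Among 2209 genes of like level, 34 (1.54%) were at least as far from their median.

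The Qrfp spot showed no flag on either array. It lay in slide row 308 at the last column of the slide, column 85, outside the defect bands. Its pixels were even, with a mean to median ratio of 0.988 in the female pool, against 1.01 in the male pool. The signal stood 8.10 times above the local background in the female pool, against 13.1 times in the male pool. The 190 measured spots around it had a median difference of -0.0099. The side of 1.5-fold on which Qrfp fell depended on the processing. It was -0.62 with the array median, -0.63 with quantile normalization and -0.67 with spike-in scaling, but -0.43 with a refitted normexp background and -0.51 with pixel medians.

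**Figure D4:**
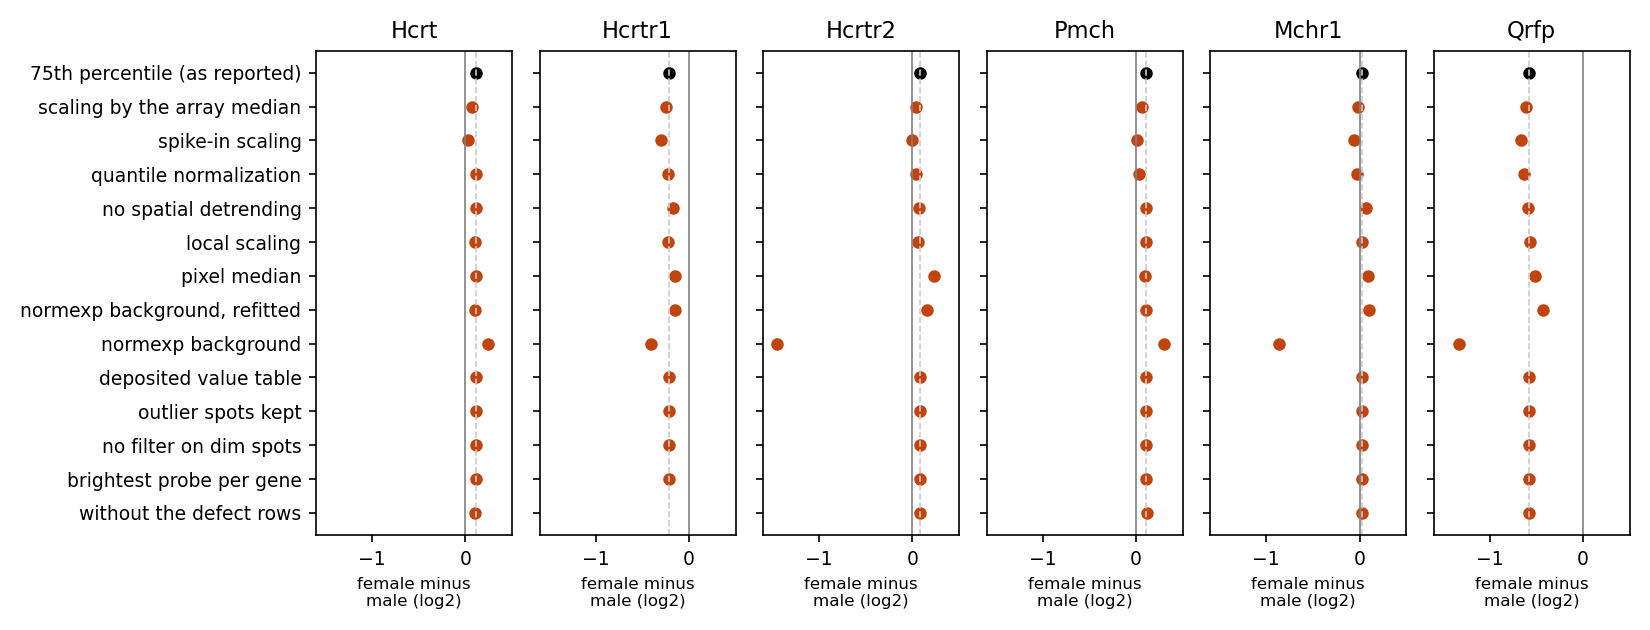
Difference between the female and the male pool (log2, horizontal axis) for each of the 6 genes (panels) under each processing setting (rows), with the reported setting in black. Hcrt and Pmch are above 0 and Qrfp and Hcrtr1 below 0 in every setting that gave a value, whereas Hcrtr2 and Mchr1 lie on both sides.

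Qrfpr, the receptor gene of QRFP, was measured on 1 spot and went the other way. Its level was -3.54 in the female pool, against -3.72 in the male pool, a difference of 0.18 ± 0.098 log2. It heads a short list of RFamide relatives, in which Npffr2, a receptor of neuropeptide FF, differed by 0.11, Npvf, the precursor of the gonadotropin-inhibiting RFamides, by 0.072 and Npff by 0.033. The 4 that were measured lay above 0, at a median of 0.093, and Npffr1 was not measured in both pools. Npffr2 and Npff differed by less than their technical SD of 0.15 and 0.068. Npffr2 and Npvf each lay in a defect band.

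Around these genes, 9 lists of cell markers and signalling partners held 76 genes, of which 74 were measured. The female pool had the higher level for 51 and the lower for 23, and their median was 0.056 log2, while the median of all measured genes was 0.00011. None reached 1.5-fold in either direction, a size reached by 1.55% of all measured genes upward (320) and 0.842% downward (174). Spike-in scaling moved the median of all genes to -0.089 and changed that split over all genes to 232 upward and 251 downward. The list medians other than those of the RFamide relatives and the Gq pathway then lay below 0, as did the median of all genes.

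Of genes enriched in orexin neurons, 4 of 6 were higher in the female pool (median 0.056), but Nptx2 and Ebf2 by less than their technical SD. Lhx9, a LIM homeobox factor of orexin neuron development, differed by 0.23, with 0.16 and 0.29 from its 2 probes. It was dim, at a level of -5.23 in the female pool, against -5.46 in the male pool, where the technical SD of a spot was 0.15. Dlk1, an imprinted Notch-related protein of orexin neurons, differed by 0.17 ± 0.081. Pdyn, the dynorphin precursor that orexin neurons release with orexin, had a level of 1.08 in the female pool, against 1.33 in the male pool, a difference of -0.25 ± 0.055. Pdyn is also made by other hypothalamic neurons.

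Of genes enriched in MCH neurons, 2 of 4 were higher in the female pool. The neurokinin B receptor gene Tacr3 differed by 0.40 ± 0.078. Cartpt, the precursor of the satiety peptide CART found in many MCH neurons, had 10 spots and differed by -0.087 ± 0.042 (SD over spots). Gad1, the enzyme of GABA synthesis, differed by 0.021.

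Of other peptides of the lateral hypothalamus, 6 of 8 lay above 0, at a median of 0.046, but Penk and Cck by less than their technical SD. Crh, the stress-axis peptide, differed by 0.41, with 0.37 and 0.45 from its 2 probes, and Trh, the thyrotropin-releasing peptide, by -0.11 ± 0.055, from a spot in a defect band. Among receptors through which orexin or MCH neurons are regulated, 8 of 12 were higher, with a median of 0.062, which turned to -0.027 with spike-in scaling. Of those higher, Lepr, Oprk1, Nmbr and Adra2a differed by less than their technical SD, as did Ghsr, Glp1r and Npy1r of those lower. The largest values there were those of the serotonin receptor gene Htr1a, 0.44 ± 0.15, of Tacr3, and of the melanocortin receptor gene Mc4r, 0.28 ± 0.089. The spots of Htr1a and Mc4r lay in the defect bands.

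Downstream of the receptors, the Gq pathway, which raises calcium when orexin binds, had a list median of 0.13 log2, which was 0.082 without the defect rows and 0.044 with spike-in scaling. Of its 14 genes, 13 were higher in the female pool, but Gnaq, Itpr1 and Trpc5 by less than their technical SD. Probes of 1 gene also disagreed, at -0.048 and 0.29 for Prkca, -0.017 and 0.042 for Itpr1, and 0.0087 and 0.32 for Plcb1. Plcb2, a phospholipase C best known from blood and taste cells, differed by 0.56 ± 0.15 at a low level of -6.58 in the female pool, against -7.14 in the male pool. The G protein gene Gna11 differed by 0.24 ± 0.095 and the calcium-release channel gene Itpr3 by 0.21 ± 0.15, from a spot in a defect band. The protein kinase gene Prkcd, also among the thalamic markers, differed by 0.16 ± 0.060 (SD, 10 spots, 6 of them in defect bands).

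The Gi and Go pathway, through which MCH lowers cyclic AMP, had a median of 0.016, with 9 of 14 genes higher in the female pool. The potassium channel genes Kcnj6 and Kcnj9 differed by 0.21 ± 0.083 and 0.15 (probes at -0.0052 and 0.31), and the adenylyl cyclase gene Adcy8 by 0.13 ± 0.059 (SD, 10 spots). Genes of the primary cilium had a median of -0.034, with 5 of 11 higher. Bbs4 differed by 0.21, with probes at -0.0023 and 0.43, Bbs7 by -0.16 ± 0.080, both members of the BBSome that moves receptors through the cilium, and the ciliary cyclase gene Adcy3 by -0.12 ± 0.072. The only Adcy3 spot and 1 of the 2 Bbs4 spots lay in a defect band. Among arousal targets, the histamine receptor gene Hrh1 differed by 0.43 ± 0.15 (defect band), the vesicular monoamine transporter gene Slc18a2 by -0.26 ± 0.061 and Maob, which degrades monoamines, by -0.026, while Hdc, the enzyme of histamine synthesis, was at -0.00068.

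**Figure D5:**
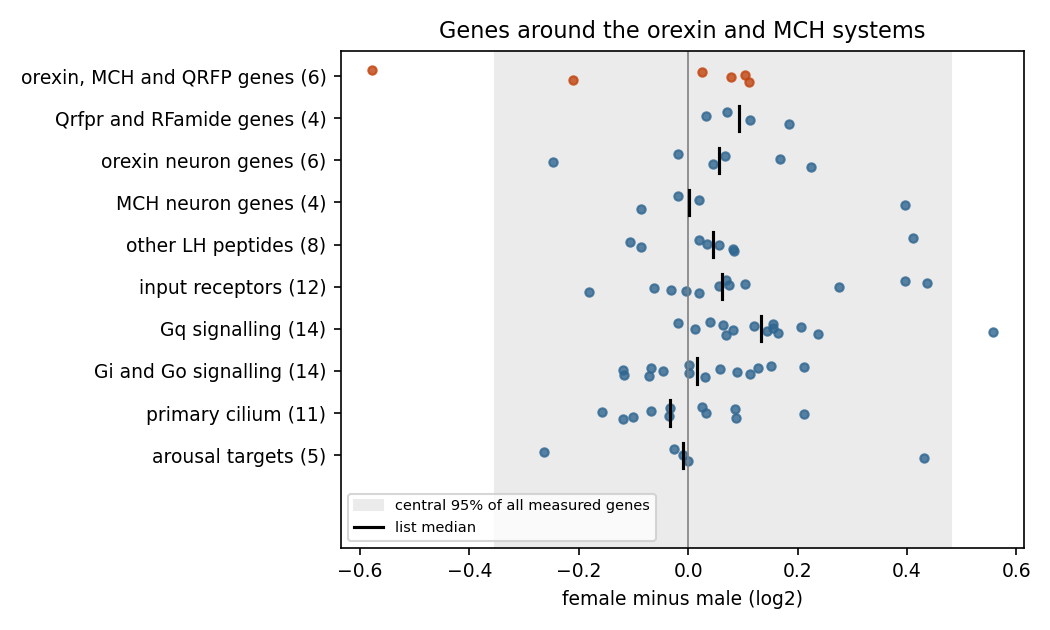
Difference between the female and the male pool (log2, horizontal axis) for each measured gene of the 6 described genes and of the 9 related lists (rows, with the number of genes; RFamide is the peptide family of QRFP, LH the lateral hypothalamus), with bars at list medians. Qrfp at -0.58 lies outside the shaded central 95% of all measured genes on the low side and Plcb2 at 0.56 on the high side. At the low level of Plcb2 the central 95% is wider, -0.73 to 0.87.

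Markers of the region and of neighbouring tissue were set beside these values. All 8 markers of hypothalamic identity were measured, with a median of 0.047 log2 (5 of 8 higher). Their summed level, in multiples of the 75th percentile, was 0.39 in the female pool, against 0.38 in the male pool. Nkx2-1, Hmx2 and Foxb1 made up most of these sums. The rest were dim, with levels in the female pool from -5.23 for Lhx9 to -7.34 for Otp. Thalamic markers had a median of 0.14 (3 of 5 higher), markers of cortex and hippocampus -0.096 (3 of 6 higher) and striatal markers 0.078 (5 of 6 higher), and none of these reached 1.5-fold. Several markers of other tissue differed more. Meningeal and fibroblast markers lay above 0 for 11 of 11, 9 of them past 1.5-fold, at a median of 1.03. Their summed level was 8.34 in the female pool, against 4.11 in the male pool. Choroid plexus markers lay above 0 for 4 of 6, 2 of them past 1.5-fold, but their median was 0.12, and Folr1 and Clic6 were each at -0.086. Their sums were 2.75 in the female pool, against 1.66 in the male pool. Ttr made up most of these sums, at a level of 1.09 in the female pool, against 0.11 in the male pool. Blood cell markers lay below 0 for 5 of 5, 1 of them past 1.5-fold, at a median of -0.49. Their sums, mostly from Hbb, were 10.6 in the female pool, against 13.3 in the male pool. Anterior pituitary markers lay below 0 for 4 of 5, 2 of them past 1.5-fold, at a median of -0.46. Their sums, mostly from Cga, were 1.75 in the female pool, against 2.92 in the male pool, while Prl and Gh1 were not measured in both pools. Of glial markers, 1 of 4 for astrocytes and 1 of 4 for oligodendrocytes was higher in the female pool, with medians of -0.093 and -0.14. The part of these tissues in the orexin, MCH and Qrfp values was not tested.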

How the data were processed

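Per the labels' protocols, 2 RNA pools were amplified, labelled with Cy3 and hybridised to 1 array each. The authors deposited scanner files in which the intensity of each spot is background-subtracted and spatially detrended, by Agilent Feature Extraction 10.7.3.1 per the file headers (9.1 per the submitters' processing notes). The deposited flags (other values) mark outliers, saturation and signal well above background. The deposited value table is the same intensity divided by a constant within each array, on a linear scale without centring, with medians of 29.5 for the female and 29.0 for the male pool.

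Levels were log2 intensities minus the 75th percentile of the non-control spots. Outlier spots were left out, spots averaged to probes and probes to genes, and a probe counted as measured with over 50% of its spots well above background in both pools. Technical SD came from the 3000 spots of like level among probes with at least 5 spots. The dimmest genes, among them Plcb2, Htr1a and Itpr3, share 1 value, 0.15, which does not widen as the level falls. Of 30367 probes, 18758 were named through RefSeq accessions (GRCr8 table, names only), 2050 by symbol, 202 by synonym, and 9357 kept the file's name. Coordinates are the files' rn4 positions, and the strand follows from the order in which they list them. The defect rows (80 to 179, 400 to 459 and 520 to 532) were taken from an earlier analysis of these arrays. The 6 genes, the lists and the alternatives were chosen with earlier results of these data known, and 3 alternatives (local scaling, pixel medians and the refitted normexp) after the values were seen. Named from each list were the 3 genes with the largest difference and any at 1.5-fold, and others named were chosen after their values were seen. Marker lists are given as counts, medians and sums. The averaging was tested on simulated data. Python 3.11.15, limma 3.58.1 (normexp, quantile normalization) and pandas 2.3.3 were used.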

Additional observations from a re-analysis of the deposited data

How the results depend on the processing

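Every alternative left 0 of the 6 genes past 1.5-fold upward. With 1 array per pool, no array could be left out, and no paired analysis was possible because each sex has 1 array. The number at least 1.5-fold lower in the female pool was 0 as reported and became 1, Qrfp, with scaling by the array median, spike-in scaling, quantile normalization and no spatial detrending (-0.59 for Qrfp). Scaling by the array median gave 0.066 for Pmch, and quantile normalization 0.027. Spike-in scaling, which shifted the median of all genes to -0.089, gave 0.023 for Hcrt, 0.015 for Pmch, -0.30 for Hcrtr1 and -0.063 for Mchr1. It gave list medians of 0.0037 for RFamide relatives, -0.033 for orexin neurons, -0.088 for MCH neurons, -0.043 for other peptides, -0.027 for input receptors, 0.044 for Gq, -0.073 for Gi and Go signalling, -0.12 for the cilium and -0.099 for arousal targets. The normexp fit on all spots gave a background of 0.62 in the female pool, against -595 in the male pool. It left the median of all genes at -0.55 and put 49.0% of genes at 1.5-fold. It gave 0.24 for Hcrt, 0.30 for Pmch, -0.41 for Hcrtr1, -1.45 for Hcrtr2, -0.86 for Mchr1 and -1.32 for Qrfp, with 3 genes (Hcrtr2, Mchr1 and Qrfp) at least 1.5-fold lower. List medians under it were -0.62 for RFamide relatives, -0.31 for orexin neurons, -0.075 for MCH neurons, 0.13 for other peptides, -1.89 for input receptors, -0.91 for Gq, -0.33 for Gi and Go, -0.30 for the cilium and -0.23 for arousal targets. Without the 10 spots whose local background exceeded their own signal on either array, the fitted backgrounds were 1.06 in the female pool, against 0.42 in the male pool, and Qrfp was -0.43. Over all genes, 320 were past 1.5-fold upward and 174 downward as reported, against 48 and 10077 with normexp on all spots, 180 and 38 with normexp refitted, 290 and 104 with pixel medians, 232 and 251 with spike-in scaling, 1198 and 877 of 26320 without the filter on dim spots, and 149 and 42 of 14869 without the defect rows. Pixel medians gave 0.23 for Hcrtr2. Leaving out the defect rows removed Hcrtr1. It also removed Gnai1, Gnai3, Adcy2, Adcy3 and Kcnj3 from the Gi and Go list, since their only spots lay there. The median of the genes left in that list was 0.090, the value of Adcy1.
The range over all alternatives was 0.023 to 0.24 for Hcrt, 0.015 to 0.30 for Pmch and -1.32 to -0.43 for Qrfp, and none of these 3 changed sign.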
